A study of Mus musculus with 9 samples.

Results

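The regional patterning genes of the homeobox and paired-box classes were followed in 9 RNA sequencing libraries of mouse brain. Members were taken by symbol: Irx1 to Irx6 (6 genes), Lhx1 to Lhx9 (8 found), Pax1 to Pax9 (9), the Nkx genes (14), the sine oculis homeobox genes, Six3 among them (6), the Pou2f to Pou6f genes (14), Meis1 to Meis3 (3), the Pitx genes (3) and Otx1, in all 64 of 22192 genes. The libraries came from KM mice, an outbred stock, labelled male. Young mice, 5 months old, and aged mice, 18 months old, were given oral saline every 2 days for 4 weeks, and the treated aged mice, also 18 months old, were given 200 mg/kg of GRP-E1F2, a polysaccharide of ginseng root, by gavage at the same interval. There were 3 libraries per group, described as parallel samples in the labels. Whether these came from separate mice is not stated, so the p-values reflect nothing but the spread among the libraries, which may be technical. Values are TPM, a level scaled for gene length and for the total of the library, so the depth of each library is unknown and a value of 0 says no more than that the table lists the gene at 0.

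Homeodomain proteins bind DNA through a helix that reads a short core, most often TAAT, and during development their combinations mark out the fore-, mid- and hindbrain and the neuron types that arise in each. LIM homeodomain (Lhx) proteins work with Ldb and Lmo partners, Meis proteins with Pbx, and sine oculis homeobox proteins with Eya and Dach. Pax proteins bind through a paired domain, and Pou proteins through a Pou-specific domain beside the homeodomain. In adult brain many of these genes stay on in the neurons of the region they helped to form, so that Lhx1 and Lhx5 mark Purkinje cells of the cerebellum and Lhx6 marks interneurons born in the ventral forebrain.

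Promoter sequences of 4 members that changed are printed. Irx2 and Irx3, from the 2 Irx gene clusters, and Lhx1 were lower with GRP-E1F2, and Meis2 was the highest member and rose. The 4 were chosen after the values were seen. Irx1, Lhx5, Pax2 and Pax6 fell by more than Irx2 with GRP-E1F2 and are not printed. Each is the 250 bases before a RefSeq transcript start on GRCm38.p6, the build also called mm10, written from 5′ to 3′ on the gene's strand. Capitals mark TAAT or its reverse complement ATTA. The stretch of Irx2 lies at chr13:72628570-72628819 on the plus strand. Those on the minus strand lie at chr8:91801655-91801904 for Irx3, chr11:84525535-84525784 for Lhx1 and chr2:116064620-116064869 for Meis2. The stretches of Irx2 and Meis2 are inside the spans of their genes.
Irx2: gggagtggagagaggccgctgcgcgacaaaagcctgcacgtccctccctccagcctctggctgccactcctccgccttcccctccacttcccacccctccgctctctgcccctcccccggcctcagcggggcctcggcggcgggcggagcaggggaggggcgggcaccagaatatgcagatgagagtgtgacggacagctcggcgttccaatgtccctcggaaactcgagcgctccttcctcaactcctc
Irx3: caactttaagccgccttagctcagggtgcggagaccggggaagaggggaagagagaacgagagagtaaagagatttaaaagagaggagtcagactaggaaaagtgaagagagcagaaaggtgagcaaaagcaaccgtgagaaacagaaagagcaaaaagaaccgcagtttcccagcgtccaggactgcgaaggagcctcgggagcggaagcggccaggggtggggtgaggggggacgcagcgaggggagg
Lhx1: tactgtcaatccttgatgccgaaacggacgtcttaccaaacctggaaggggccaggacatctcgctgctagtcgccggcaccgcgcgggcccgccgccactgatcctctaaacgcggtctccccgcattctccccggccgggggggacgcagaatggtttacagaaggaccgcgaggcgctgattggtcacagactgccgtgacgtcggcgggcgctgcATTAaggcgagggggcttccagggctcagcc
Meis2: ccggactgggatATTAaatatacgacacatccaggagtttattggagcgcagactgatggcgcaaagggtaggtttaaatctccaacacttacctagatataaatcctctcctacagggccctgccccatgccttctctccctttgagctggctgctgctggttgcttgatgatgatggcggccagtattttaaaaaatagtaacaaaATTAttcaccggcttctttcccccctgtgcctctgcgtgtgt
The windows of Irx2 and Irx3 hold no TAAT or ATTA, that of Lhx1 holds 1 and that of Meis2 holds 2. RefSeq promoters were found for 47 of the 64 members, with 58 starts in all. Of these windows 43.1% held TAAT or ATTA, against 54.9% of the 32851 promoter windows of the same length in the table. The members' windows were richer in CpG, with a median of 14.0 CpG dinucleotides against 6.0 in all windows. These are matches of letters and not binding sites.

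Several features of the libraries touch every result. In every group 1 library took an intermediate level at most genes. Genes were taken where the 2 companion libraries averaged at least 1 TPM and lay 1.3-fold or more apart. The level was intermediate at 89.41% of them in young library 3, 91.44% in aged library 2 and 92.57% in treated library 3. In the remaining 6 libraries it was so at 17.78% to 30.99%. For the members no limit on level was set. There the first 3 libraries were intermediate at 32 of 38, 27 of 37 and 35 of 43 genes, and the remaining 6 at 19.23% to 40.0%. A fit without these 3 libraries is therefore given beside the calls. The extraction protocol speaks of retinas although the tissue label is brain. Summed levels of 8 retina markers were 2.42 to 5.28 TPM, against 3916 to 4983 TPM for 5 pan-neuronal genes. No library was above 0.174 TPM for any of 4 Y-linked genes, a check added after the data were seen, although the mice are labelled male. The sources used here do not give which part of the brain was taken, and in tissue RNA fewer cells of a type and less RNA per cell cannot be told apart.

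Markers of brain regions differed strongly between the groups and between libraries of a group. The 9 cerebellar neuron markers, Pcp2 and Gabra6 among them, summed to 2874 to 4198 TPM in young, 1677 to 2071 TPM in aged and 29.7 to 41.5 TPM in treated libraries. None of the 9 was listed at 0 in all libraries of a group. The 10 hindbrain and spinal cord markers summed to 46.6 to 64.0, 1.58 to 8.47 and 0.517 to 0.794 TPM, and Hoxb5, Hoxd4 and Slc6a5 were among those listed at 0 in the treated libraries. The levels of cerebellar markers therefore moved in the same order as the members that fell most, and their part in those changes was not tested.

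**Figure D1:**
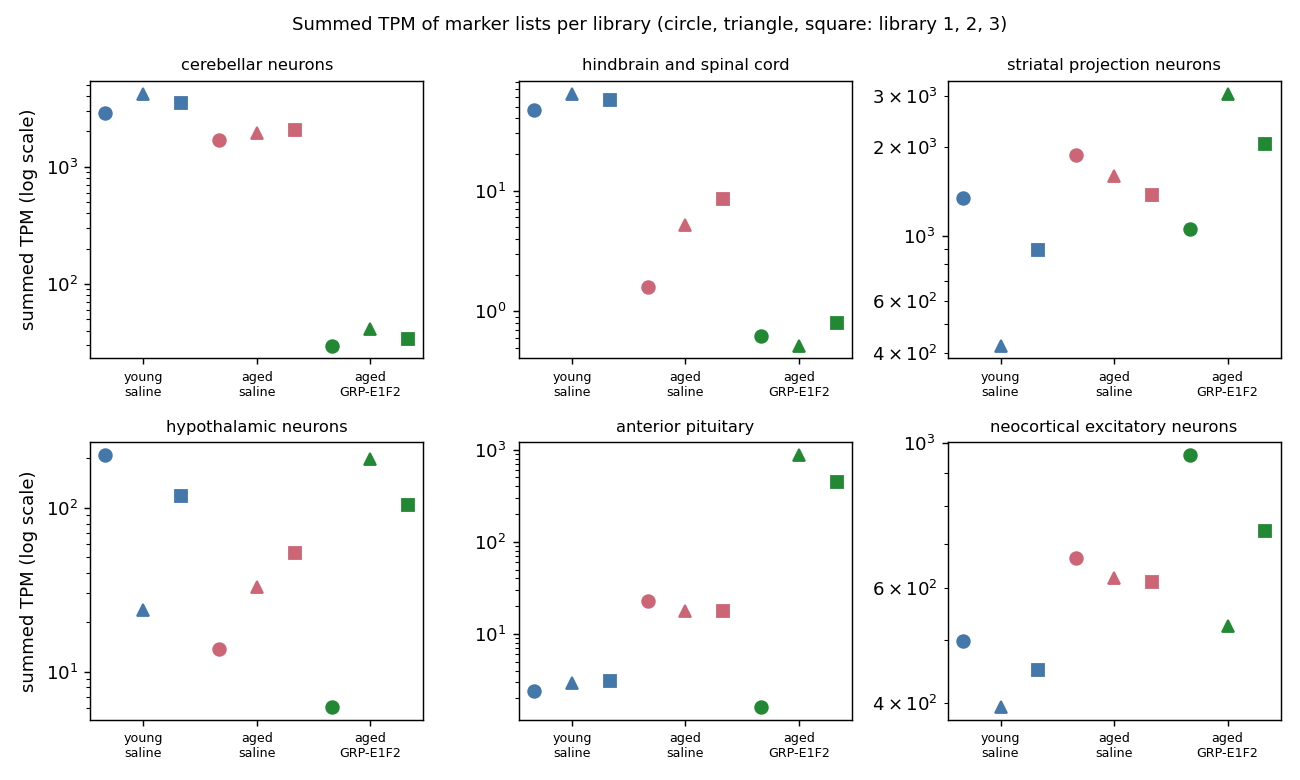
Summed TPM (log scale) of 6 lists of regional marker genes in each library, by group; circle, triangle and square are libraries 1, 2 and 3. Cerebellar markers lie between 29.7 and 41.5 TPM in the treated libraries and between 1677 and 4198 TPM in the others, and hypothalamic and pituitary markers differ most between treated libraries 1 and 2.

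Of the 64 members, 28 averaged 1 TPM or more across the 9 libraries and were tested, and 36 averaged less. The 28 were 4 Irx, 6 Lhx, 2 Pax, 3 Nkx, 7 Pou and 3 Meis genes with Six3, Pitx3 and Otx1. Between 43 and 54 members were above 0 in a library, and the members together summed to 260.0 to 334 TPM. Meis2 had the highest mean over the 9 libraries, 55.2 TPM, followed by Pou6f1 at 24.9, Meis3 at 24.0 and Pou3f3 at 23.1 TPM. The library ranges of the last 3 overlapped. The summed level of the Irx genes was 17.6 to 23.1 TPM in young, 6.55 to 12.9 TPM in aged and 0.720 to 0.977 TPM in treated libraries. The summed level of the Meis genes was 55.6 to 67.1, 70.7 to 77.1 and 111 to 156 TPM. Pax genes summed to 33.9 to 48.3, 19.4 to 23.3 and 6.94 to 9.08 TPM, so that the Irx and Pax sums were lowest, and the Meis sum highest, in the treated libraries.

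**Figure D2:**
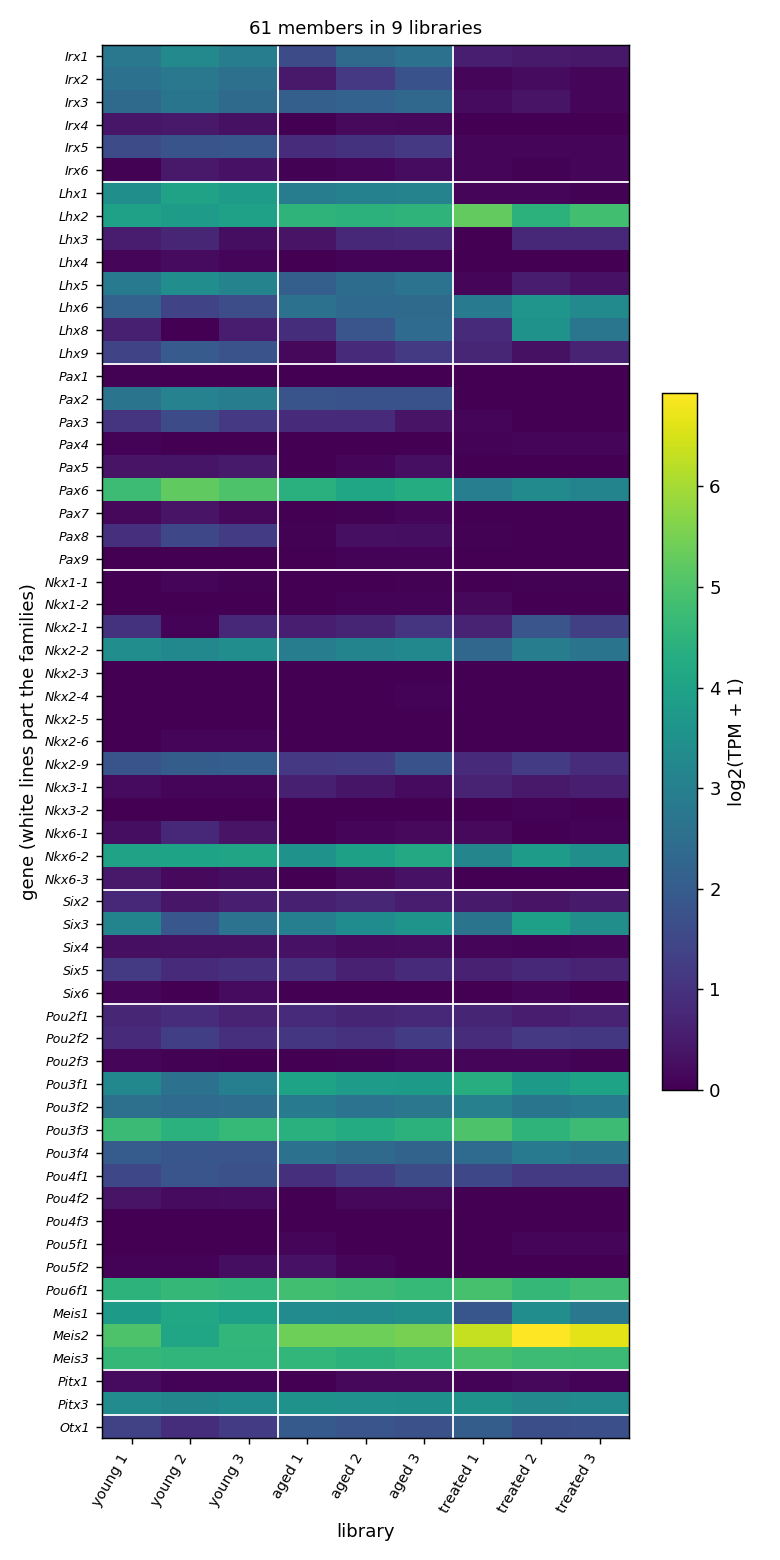
Level of each of 61 members, as log2(TPM + 1), in the 9 libraries (columns, by group; white lines part groups and families). Irx, Pax2 and Lhx1 darken from young to treated libraries, Meis2 brightens, and most Nkx and Pax genes are near 0 throughout.

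Tests used limma on log2(TPM + 1), and "rose" and "fell" stand for an adjusted p under 0.05 over all 13301 genes tested. Differences are on that scale, where the change of genes with low levels is understated. From young to aged saline, 5 of the 28 members rose and 8 fell, where 5.48% of all genes tested rose and 11.2% fell. Their median difference was -0.18, against -0.05 for all genes tested. From aged saline to GRP-E1F2, 3 rose and 8 fell, where 7.47% of all genes rose and 13.4% fell, with a median of -0.09 against -0.02. Between GRP-E1F2 and young saline, 9 rose and 13 fell, where 17.2% of all genes rose and 29.4% fell, with a median of -0.19 against -0.07. This last comparison shares libraries with both others, and the first and the second share the aged saline libraries. Members that passed the filter only through a group where they were high had to differ, so the counts describe these 28 genes only.

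With 2 libraries per group, the age comparison called no member (limma, smallest adjusted p = 0.234), although 12 of 28 had an unadjusted p under 0.05, and it called 0.00752% of all genes as higher and 0.015% as lower. The GRP-E1F2 comparison kept 5 falls and no rise, against 0.105% of all genes called higher and 1.76% called lower. GRP-E1F2 against young saline kept 3 rises and 8 falls, against 3.91% and 8.97%. The 5 members that fell with GRP-E1F2 in each of the 16 alternative fits were Irx3, Lhx1, Lhx5, Pax2 and Pax6. All but Pax6 were below 1 TPM in every treated library and so passed the filter only through the saline libraries. None of the 13 age calls held in all 16, and 3 of them, Irx2, Irx5 and Pax2, held when each library was left out in turn. Leaving out young library 3 or aged library 2 left 3 age calls.

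**Figure D3:**
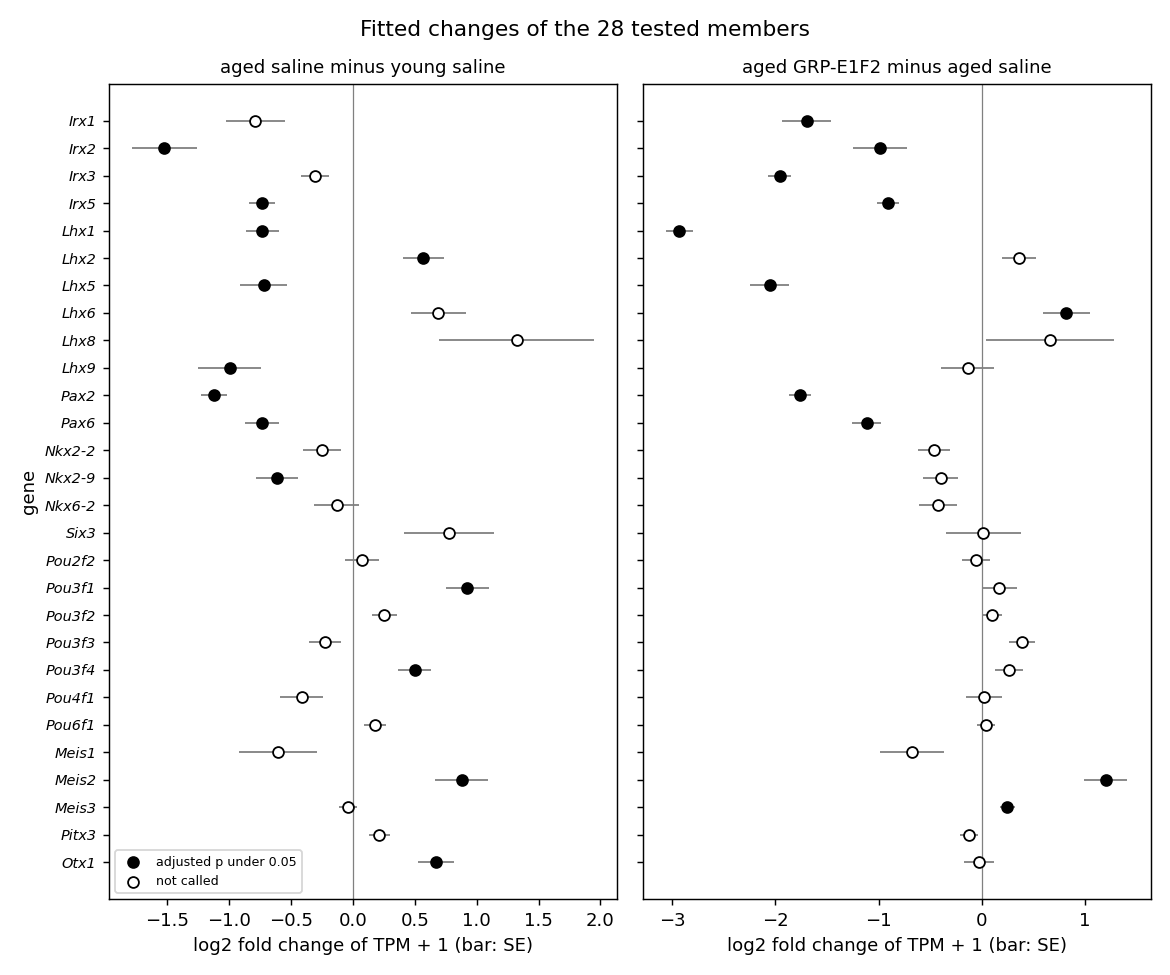
Difference of each of the 28 tested members on the log2(TPM + 1) scale, with its standard error as a bar, for aged minus young saline (left) and GRP-E1F2 minus aged saline (right); filled points have an adjusted p under 0.05. Lhx1 lies lowest at -2.93 and Meis2 highest at 1.20 on the right, and the point of Pax2 there depends on the pseudocount because its treated libraries are listed at 0.

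The Iroquois genes code for homeodomain proteins that divide the neural plate into territories and lie in 2 clusters, Irx1, Irx2 and Irx4 on chromosome 13 and Irx3, Irx5 and Irx6 on chromosome 8. All 4 tested Irx genes fell with GRP-E1F2, where 13.4% of all genes tested fell. Of the 4, 2 also fell with age, where 11.2% of all genes did. All 4 were below 1 TPM in every treated library and so passed the filter only through the saline libraries. The count therefore describes these 4 genes only. Irx1 (chr13:71958232-71963723) measured 5.83, 8.59 and 6.64 TPM in young libraries 1, 2 and 3, 2.01, 4.29 and 5.08 TPM in aged libraries and 0.484, 0.403 and 0.366 TPM in treated libraries. The 3 groups did not overlap, and aged library 1 was the lowest of the saline libraries. Irx1 fell by 1.70 ± 0.24 (SE) with GRP-E1F2 (limma adjusted p = 0.00147). Its age difference was -0.79 ± 0.24 and missed the threshold (limma adjusted p = 0.0508). Its neighbour Irx2 (chr13:72624430-72634196), 660.7 kb away, measured 5.17, 5.79 and 4.92 TPM in young, 0.384, 1.23 and 2.38 TPM in aged and 0.0637, 0.158 and 0.0822 TPM in treated libraries. The aged libraries were spread widely, with library 1 the lowest, and no groups overlapped. Irx2 fell by 1.52 ± 0.26 with age (limma adjusted p = 0.00923) and by 0.99 ± 0.26 with GRP-E1F2 (limma adjusted p = 0.0276).

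In the chromosome 8 cluster, Irx3 (chr8:91798511-91801654) was nearly level between the saline groups and low with GRP-E1F2. It measured 4.23, 5.49 and 4.30 TPM in young, 3.28, 3.53 and 3.93 TPM in aged and 0.147, 0.293 and 0.0971 TPM in treated libraries. Every treated library lay far below every saline library, and the young and aged libraries did not overlap. Irx3 fell by 1.96 ± 0.11 with GRP-E1F2 (limma adjusted p = 9.3e-06), and its age difference of -0.30 ± 0.11 did not pass (limma adjusted p = 0.0936). Irx5 (chr8:92357796-92361456), 556.1 kb from Irx3, measured 2.04, 2.5 and 2.58 TPM in young, 0.842, 1.01 and 1.23 TPM in aged and 0.0621, 0.0868 and 0.0905 TPM in treated libraries. No groups overlapped. It fell by 0.73 ± 0.11 with age (limma adjusted p = 0.00565) and by 0.91 ± 0.11 with GRP-E1F2 (limma adjusted p = 0.000565). The third gene of each cluster stayed below the filter: Irx4 measured 0.340, 0.391 and 0.245 TPM in young, 0, 0.134 and 0.106 TPM in aged and 0 in all treated libraries, and Irx6 did not exceed 0.376 TPM. With 2 libraries per group, Irx3 was the 1 Irx gene that still passed with GRP-E1F2; over the 16 alternatives the adjusted p reached 0.0912 for Irx1, 0.345 for Irx2 and 0.0837 for Irx5 and ranged from 1.05e-05 to 0.00578 for Irx3. An antisense gene, Irx3os, overlaps 1653 bases of Irx3, and whether strand was used in counting is not given, so the reads of the pair cannot be told apart.

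Among the LIM homeodomain genes, the 2 that mark Purkinje cells had the steepest falls with GRP-E1F2, while with age the difference of Lhx9, described after them, was larger than theirs. Lhx1 (chr11:84517975-84525534) measured 9.86, 15.0 and 13.1 TPM in young, 6.53, 7.22 and 7.62 TPM in aged and 0.0776, 0.0725 and 0.0377 TPM in treated libraries. All 3 treated libraries were close to 0 and no groups overlapped. Lhx1 fell by 0.73 ± 0.13 with age (limma adjusted p = 0.0108) and by 2.93 ± 0.13 with GRP-E1F2 (limma adjusted p = 2.07e-06), and the ratio of the aged to the treated mean was 114. Lhx5 (chr5:120431886-120441457), its close relative, measured 6.12, 9.61 and 7.61 TPM in young, 3.25, 4.48 and 5.21 TPM in aged and 0.0786, 0.477 and 0.267 TPM in treated libraries. The groups again lay apart. It fell by 0.72 ± 0.19 with age (limma adjusted p = 0.0337) and by 2.05 ± 0.19 with GRP-E1F2 (limma adjusted p = 0.000137). In both genes young library 2 was the highest library, as it was in the summed cerebellar markers (4198 TPM). Lhx1 and Lhx5 were below 1 TPM in every treated library and so passed the filter only through the saline libraries. The age call of Lhx5 was lost without any of young libraries 2 and 3, aged libraries 1 and 2 and treated library 3, and that of Lhx1 without young library 3 or aged library 2.

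**Figure D4:**
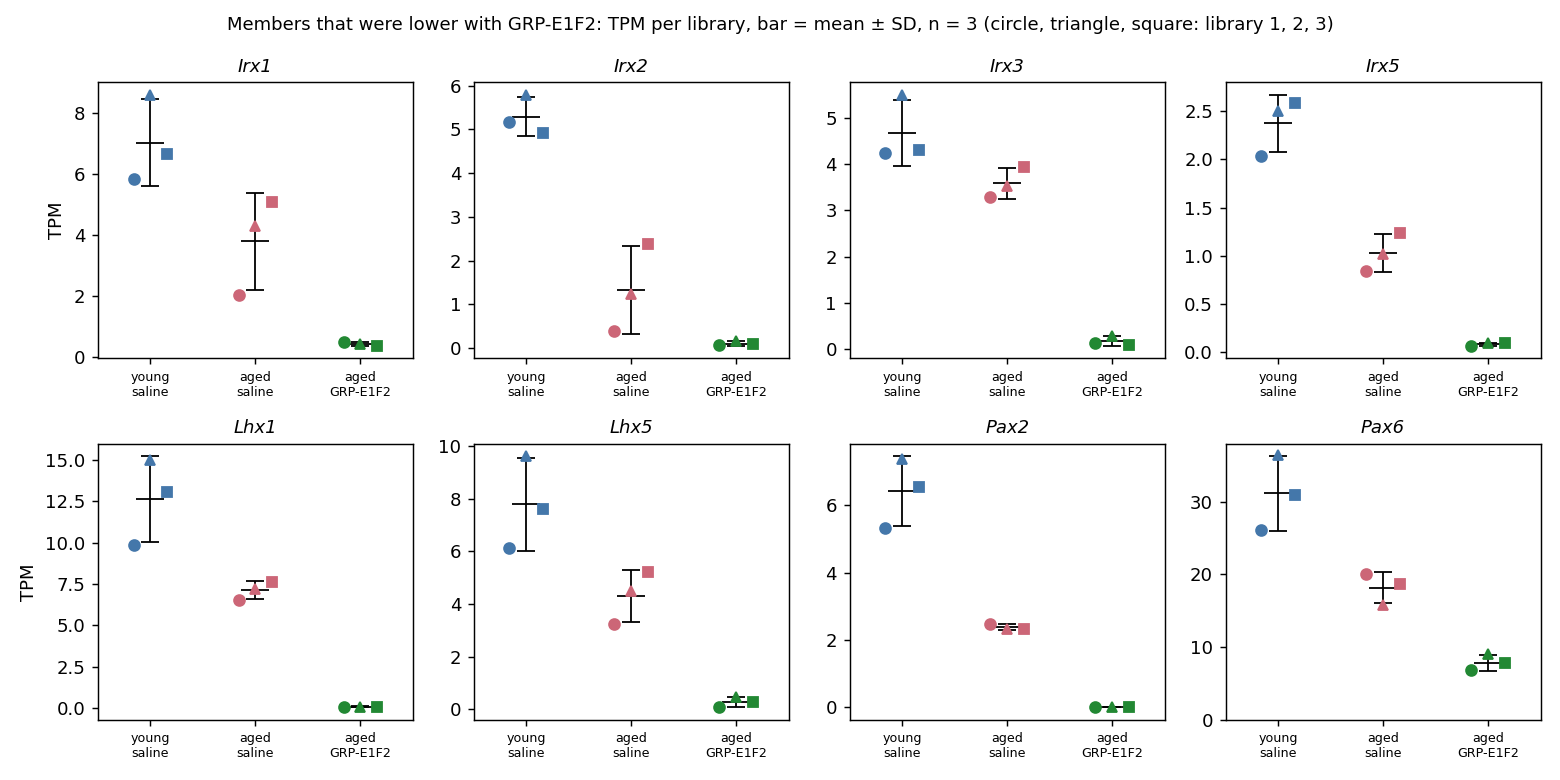
TPM of the 8 members that fell with GRP-E1F2, per library (circle, triangle and square are libraries 1, 2 and 3), with bars for the group mean and SD (n = 3). In every panel the 3 treated libraries lie below the 3 aged libraries, which lie below the 3 young libraries, and Pax2 is listed at 0 in the treated libraries.

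Lhx9 is expressed in diencephalic neurons and fell with age. Its young libraries measured 1.66, 2.94 and 2.43 TPM, its aged libraries 0.113, 0.786 and 1.27 TPM and its treated libraries 0.686, 0.250 and 0.622 TPM. The young libraries were above all others, while the aged and treated libraries overlapped. Lhx9 fell by 1.00 ± 0.26 with age (limma adjusted p = 0.0326, 0.0168 to 0.418 over the alternatives), and the difference with GRP-E1F2 was -0.13 ± 0.26 (limma adjusted p = 0.747). The 7 thalamic neuron markers summed to 123 to 133 TPM in young, 68.2 to 169.5 TPM in aged and 53.6 to 89.5 TPM in treated libraries, lowest among the aged in library 1, as Lhx9 was. Their part in the fall was not tested.

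Lhx2, Lhx6 and Lhx8 belong to the forebrain and each rose in at least 1 comparison. Lhx2, which specifies cortical identity and stays on in cortical neurons, measured 14.5, 13.2 and 14.6 TPM in young, 21.7, 20.7 and 21.8 TPM in aged and 37.3, 20.8 and 27.7 TPM in treated libraries. All aged libraries were above all young ones, and the treated libraries overlapped the aged ones. Lhx2 rose by 0.57 ± 0.17 with age (limma adjusted p = 0.047, 0.00624 to 0.452 over the alternatives), a call that 7 of the 9 fits with 1 library left out lost. Its difference with GRP-E1F2 was 0.36 ± 0.17 (limma adjusted p = 0.154), and it rose by 0.93 ± 0.17 between GRP-E1F2 and young saline (limma adjusted p = 0.00186). The 8 neocortical excitatory neuron markers summed to 394 to 498 TPM in young, 614 to 668 TPM in aged and 525 to 959 TPM in treated libraries, with treated library 1 the highest and library 2 the lowest of the treated, as in Lhx2. Slc17a7 alone made up most of each sum. It measured 359 to 436 TPM in young, 523 to 547 TPM in aged and 447 to 782 TPM in treated libraries.

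Lhx6, which marks interneurons from the medial ganglionic eminence, and Lhx8, which marks cholinergic neurons of the basal forebrain and striatum, were both highest in treated library 2. Lhx6 measured 3.55, 1.69 and 2.12 TPM in young, 4.99, 4.12 and 4.25 TPM in aged and 6.21, 11.3 and 8.98 TPM in treated libraries. No groups overlapped. It rose by 0.82 ± 0.22 with GRP-E1F2 (limma adjusted p = 0.0316, 0.0115 to 0.387 over the alternatives), a call lost without any of treated libraries 2 and 3, aged libraries 2 and 3 and young library 3. Lhx8 measured 0.525, 0 and 0.461 TPM in young, 0.859, 2.52 and 4.33 TPM in aged and 0.788, 10.7 and 5.60 TPM in treated libraries. Treated library 1 lay below all aged libraries and treated library 2 above them, and the difference with GRP-E1F2 was 0.66 ± 0.62 (limma adjusted p = 0.491). Between GRP-E1F2 and young saline Lhx8 rose by 1.98 ± 0.62 (limma adjusted p = 0.0273), but not without treated library 2 or 3 or without young library 2 or 3. Beside these values, the 9 striatal projection neuron markers summed to 1342, 423 and 892 TPM in young libraries 1, 2 and 3 and to 1057, 3047 and 2058 TPM in treated libraries 1, 2 and 3. The part of striatal tissue in the levels of Lhx6 and Lhx8 was not tested. Lhx3 and Lhx4, which act in the pituitary and in motor neurons, stayed at or below 0.778 TPM.

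**Figure D5:**
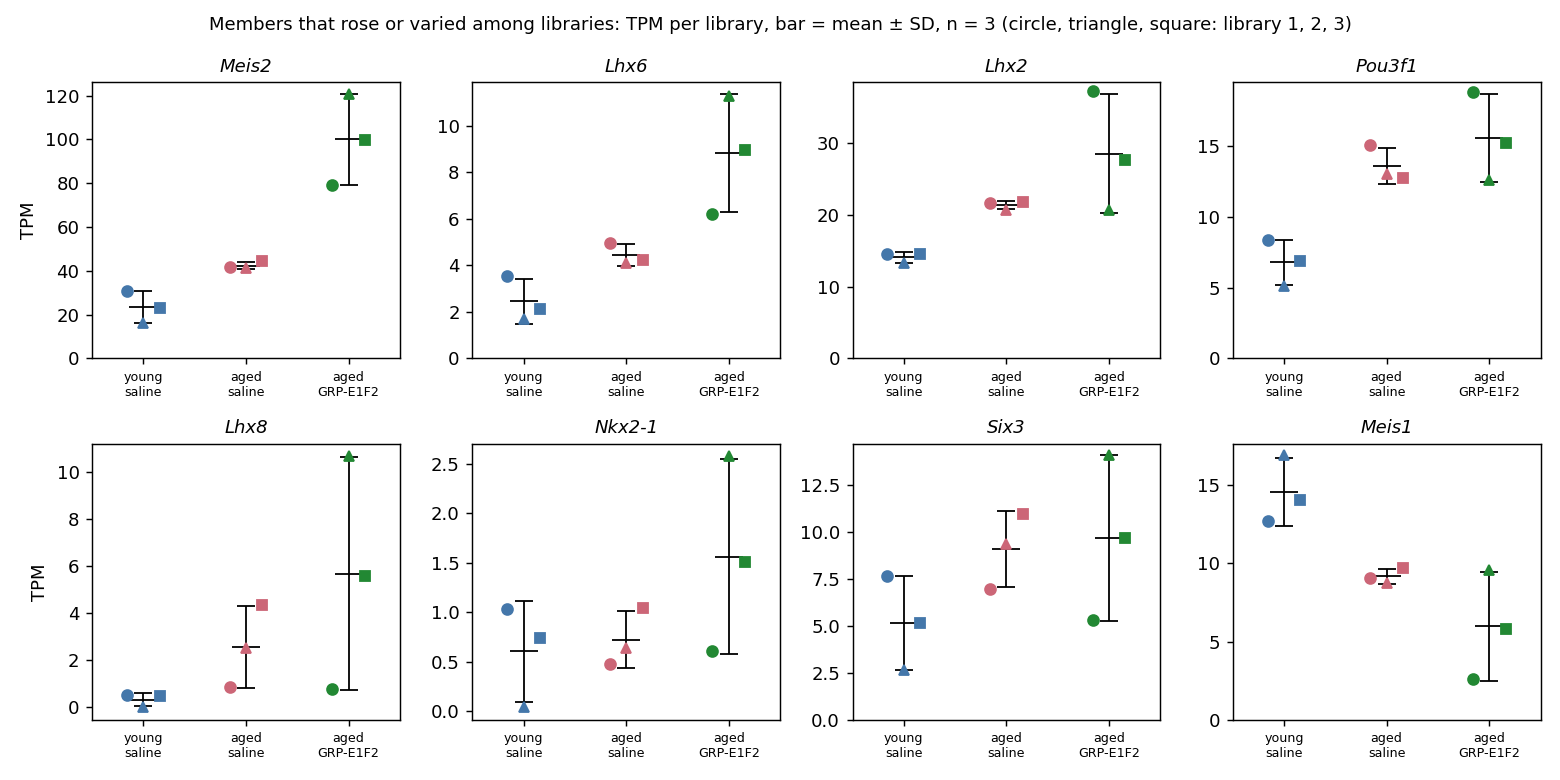
TPM of 8 members that rose in a comparison or varied among libraries of a group, per library (circle, triangle and square are libraries 1, 2 and 3), with bars for the group mean and SD (n = 3). In Meis2 and Lhx6 the 3 groups lie apart, while in Lhx8, Nkx2-1, Six3 and Meis1 treated library 2 lies far above treated library 1.

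In the Pax family, Pax2 and Pax6 passed the filter, Pax2 only through the saline libraries, and both fell in each comparison. Of all genes tested 11.2% fell with age, 13.4% with GRP-E1F2 and 29.4% between GRP-E1F2 and young saline. Pax2 (chr19:44746601-44838269) acts at the midbrain-hindbrain boundary and marks precursors of cerebellar inhibitory interneurons. It measured 5.34, 7.39 and 6.56 TPM in young and 2.48, 2.34 and 2.34 TPM in aged libraries, and was listed at 0 in all 3 treated libraries. The groups lay apart. Pax2 fell by 1.12 ± 0.11 with age (limma adjusted p = 0.00122) and fell with GRP-E1F2 (limma adjusted p = 1.07e-05), for which no fold is given because the treated libraries were at 0. Over the alternatives the limma adjusted p of its age difference ranged from 0.00131 to 0.234, the highest value with 2 libraries per group. The antisense genes Gm20395 and 1700039E22Rik overlap 10751 and 7446 bases of the span of Pax2.

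Pax6 (chr2:105668896-105698410), needed for the eye, cortex and cerebellar granule cells and also expressed in the olfactory bulb, was the highest Pax gene. It measured 26.1, 36.5 and 30.9 TPM in young, 20.0, 15.9 and 18.7 TPM in aged and 6.80, 8.99 and 7.78 TPM in treated libraries. The groups did not overlap, and unlike Pax2 a level of several TPM was left in each treated library. Pax6 fell by 0.74 ± 0.14 with age (limma adjusted p = 0.0123) and by 1.12 ± 0.14 with GRP-E1F2 (limma adjusted p = 0.000777). The 7 olfactory bulb markers summed to 251 to 343 TPM in young, 216 to 241 TPM in aged and 65.4 to 232 TPM in treated libraries. Most of that sum was Calb2, a calcium-binding protein gene that is also expressed elsewhere in the brain, at 245, 337 and 298 TPM in young, 122, 157 and 199 TPM in aged and 47.7, 132 and 91.1 TPM in treated libraries. The list as a whole did not follow Calb2. Of its 6 tested genes 3 rose with age and none fell, where 5.48% of all genes rose and 11.2% fell. Their median was 1.20 against -0.05 for all genes tested. Between GRP-E1F2 and young saline 4 rose and 2 fell, where 17.2% of all genes rose and 29.4% fell, with a median of 2.40 against -0.07. With age S100a5 went from 0.630 ± 0.0146 (SD, n = 3) to 38.9 ± 19.2 TPM, Omp, the olfactory marker protein gene, from 1.02 ± 0.372 to 23.2 ± 7.30 TPM and Cdhr1 from 0.535 ± 0.317 to 5.35 ± 0.140 TPM. From aged saline to GRP-E1F2 Sp8 alone of the 6 passed, and it rose. Sp8 averaged 0.273 TPM in young, 0.586 TPM in aged and 5.09 TPM in treated libraries. It therefore passed the filter only through the treated libraries. S100a5 and Cdhr1 averaged under 1 TPM in the young libraries and so passed the filter only through the aged and treated libraries. The counts and medians of the list therefore describe these 6 genes only. The part of olfactory bulb tissue in the level of Pax6 was not tested.

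The other 7 Pax genes were below a mean of 1 TPM. Pax3, a dorsal neural tube and neural crest gene, measured 1.08, 2.04 and 1.24 TPM in young, 0.790, 0.821 and 0.291 TPM in aged and 0.0629, 0 and 0 TPM in treated libraries. Pax8, a partner of Pax2 at the midbrain-hindbrain boundary, measured 0.911, 1.81 and 1.29 TPM in young, 0.0335, 0.218 and 0.185 TPM in aged and 0.0333, 0 and 0 TPM in treated libraries. In neither gene did the young and aged libraries overlap. Without the filter, Pax8 fell with age by 1.02 (limma adjusted p = 0.00478) and Pax3 fell with GRP-E1F2 by 0.66 (limma adjusted p = 0.0319). Pax5, which acts with Pax2 and is also a B cell gene, measured 0.297, 0.316 and 0.424 TPM in young and at most 0.225 TPM elsewhere, and was listed at 0 in all treated libraries. The 6 B cell markers summed to 8.45 to 9.74 TPM in young, 6.87 to 7.54 TPM in aged and 1.53 to 2.69 TPM in treated libraries, most of it from Ebf1. Pax1, Pax4, Pax7 and Pax9 did not exceed 0.288 TPM.

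Of the Nkx genes, Nkx2-2, Nkx2-9 and Nkx6-2 were tested. Nkx2-2, which patterns the ventral neural tube and is used by maturing oligodendrocyte precursors, measured 9.57, 8.36 and 9.54 TPM in young, 6.47, 7.77 and 8.47 TPM in aged and 3.92, 6.57 and 5.35 TPM in treated libraries. The aged libraries overlapped both other groups, which lay apart. It fell by 0.71 ± 0.15 between GRP-E1F2 and young saline (limma adjusted p = 0.00472), and its difference from aged saline was -0.47 ± 0.15 (limma adjusted p = 0.0607). Nkx6-2, a regulator of myelin genes in oligodendrocytes, measured 15.0, 15.2 and 15.6 TPM in young, 10.7, 14.3 and 17.3 TPM in aged and 7.92, 12.9 and 9.97 TPM in treated libraries. The treated libraries lay below the young ones, and the aged libraries overlapped both. Nkx6-2 fell by 0.55 ± 0.18 between GRP-E1F2 and young saline (limma adjusted p = 0.0328), a call that median-of-ratios scaling and quantile normalisation both ended. The 8 oligodendrocyte lineage markers summed to 5476 to 5737 TPM in young, 3809 to 4155 TPM in aged and 3177 to 3296 TPM in treated libraries, and their part in the levels of the 2 genes was not tested. The gene Inpp5a, at 24.2 to 141 TPM, overlaps 277 bases of Nkx6-2 on the other strand.

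Nkx2-9, a ventral midline gene, measured 2.5, 3.14 and 3.22 TPM in young, 1.23, 1.3 and 2.33 TPM in aged and 0.771, 1.29 and 0.835 TPM in treated libraries. The young libraries were above all others, and the aged and treated libraries overlapped. It fell by 0.61 ± 0.17 with age (limma adjusted p = 0.0412), a call lost in 11 of the 16 alternatives with an adjusted p of up to 0.540, and by 1.01 ± 0.17 between GRP-E1F2 and young saline (limma adjusted p = 0.00143). Of its neighbours on chromosome 12, Nkx2-1, 74.5 kb away, was below the filter as a mean over the 9 libraries but above Nkx2-9 in treated libraries 2 and 3, and Pax9, 78.1 kb away, did not exceed 0.0458 TPM. Nkx2-1 specifies the medial ganglionic eminence and the hypothalamus and measured 1.04, 0.0422 and 0.743 TPM in young, 0.483, 0.642 and 1.04 TPM in aged and 0.612, 2.58 and 1.50 TPM in treated libraries. Young library 2 was lowest and treated library 2 highest. The summed level of the 9 hypothalamic neuron markers had the same highest-to-lowest order of libraries within each group. Sums were 209.6, 23.7 and 118 TPM in young, 13.8, 33.0 and 52.9 TPM in aged and 6.07, 199 and 103 TPM in treated libraries. Not every marker had this order, and Hcrt measured 0.596, 0 and 0.587 TPM in treated libraries. Between GRP-E1F2 and young saline, Pmch and Hcrt fell and none of the 7 tested markers rose. Of all genes tested, 29.4% fell and 17.2% rose. The part of hypothalamic tissue in the level of Nkx2-1 was not tested. The 10 other Nkx genes did not exceed 0.693 TPM, and Nkx2-3 and Nkx2-5, a heart gene, were listed at 0 in all 9 libraries.

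Six3, the anterior forebrain and eye gene that also acts in striatal neurons, was the 1 gene of its family that was tested and passed in no comparison. It measured 7.67, 2.66 and 5.19 TPM in young, 6.95, 9.38 and 11.0 TPM in aged and 5.30, 14.2 and 9.68 TPM in treated libraries. All 3 groups overlapped, with young library 2 the lowest and treated library 2 the highest of the 9. Its difference was 0.78 ± 0.37 with age (limma adjusted p = 0.167) and 0.01 ± 0.37 with GRP-E1F2 (limma adjusted p = 0.982). Six5 reached 1.27 TPM in young library 1 and lay between 0.542 and 0.945 TPM in the other libraries. Six2, Six4 and Six6 did not exceed 0.710 TPM.

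The 4 Pou3f genes code for Pou factors of cortical and other neurons. Of these 2 rose with age, where 5.48% of all genes tested rose, and none passed between aged saline and GRP-E1F2. Pou3f1, expressed in cortical neurons and in Schwann cells, measured 8.35, 5.13 and 6.90 TPM in young, 15.1, 13.0 and 12.7 TPM in aged and 18.9, 12.7 and 15.3 TPM in treated libraries. Every aged and treated library was above every young one, and the aged and treated libraries overlapped. Pou3f1 rose by 0.92 ± 0.17 with age (limma adjusted p = 0.0119), a call lost without young library 3 or aged library 2, and differed by 0.17 ± 0.17 with GRP-E1F2 (limma adjusted p = 0.521). Pou3f4, on chromosome X, measured 3.01, 2.59 and 2.57 TPM in young, 4.99, 4.25 and 3.63 TPM in aged and 4.39, 6.40 and 5.33 TPM in treated libraries. The same arrangement held. It rose by 0.50 ± 0.13 with age (limma adjusted p = 0.0365, 0.0231 to 0.494 over the alternatives), and 5 of the 9 fits with 1 library left out lost the call.

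Pou3f2, a factor of upper-layer cortical neurons, measured 4.91, 4.38 and 4.56 TPM in young, 6.17, 5.22 and 5.72 TPM in aged and 7.08, 5.41 and 6.11 TPM in treated libraries. It rose by 0.35 ± 0.10 between GRP-E1F2 and young saline (limma adjusted p = 0.0166). Pou3f3, its relative with the highest level of the 4, measured 23.3 ± 2.54 (SD, n = 3), 19.7 ± 1.32 and 26.3 ± 4.70 TPM in young, aged and treated libraries. It passed in no comparison, but its difference of 0.39 ± 0.13 with GRP-E1F2 (limma adjusted p = 0.0588) passed under both other scalings. Among the other tested Pou genes, Pou6f1 measured 22.5 ± 1.11, 25.7 ± 1.58 and 26.6 ± 2.97 TPM, Pou4f1, a habenula and sensory neuron gene, 2.22 ± 0.369, 1.44 ± 0.544 and 1.45 ± 0.346 TPM, and Pou2f2, a lymphocyte and neuron gene, 1.07 ± 0.342, 1.16 ± 0.189 and 1.09 ± 0.210 TPM. None of these 3 passed in any comparison, and in all 3 the aged and treated libraries overlapped. Pou2f1, Pou2f3, Pou4f2, Pou5f1 and Pou5f2 did not exceed 0.826 TPM, and Pou4f3 was listed at 0 in all libraries.

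The Meis genes, TALE homeodomain partners of Pbx and Hox proteins, went in different directions. Meis2 (chr2:115861264-116067537), abundant in striatal projection neurons and in the olfactory bulb, measured 30.8, 16.1 and 23.1 TPM in young, 41.6, 41.2 and 44.3 TPM in aged and 79.4, 121 and 99.8 TPM in treated libraries. No groups overlapped, and treated library 2 was the highest of all. Meis2 rose by 0.88 ± 0.21 with age (limma adjusted p = 0.0269) and by 1.20 ± 0.21 with GRP-E1F2 (limma adjusted p = 0.00492). The rise with GRP-E1F2 held when each library was left out, with an adjusted p of 0.154 with 2 libraries per group, and the age rise was lost without any of young libraries 2 and 3 and aged libraries 1, 2 and 3. Within the young and treated groups Meis2 had the order of the summed striatal markers (young library 2 lowest, treated library 2 highest). Treated library 1 had 1057 TPM of striatal markers and the aged libraries 1382 to 1877 TPM. The part of striatal tissue in the level of Meis2 was not tested.

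Meis1, which is expressed in cerebellar granule cells among others, measured 12.7, 16.9 and 14.0 TPM in young, 9.06, 8.76 and 9.72 TPM in aged and 2.60, 9.58 and 5.79 TPM in treated libraries. The young libraries were above all others, and treated library 2 lay among the aged ones. Its differences were -0.60 ± 0.31 with age (limma adjusted p = 0.206) and -0.68 ± 0.31 with GRP-E1F2 (limma adjusted p = 0.16), and it fell by 1.28 ± 0.31 between GRP-E1F2 and young saline (limma adjusted p = 0.00904). Meis3 measured 23.6, 22.6 and 22.7 TPM in young, 23.2, 20.7 and 23.1 TPM in aged and 29.2, 25.8 and 25.4 TPM in treated libraries. The treated libraries were above all saline ones by a small margin. Meis3 rose by 0.25 ± 0.07 with GRP-E1F2 (limma adjusted p = 0.0378), a call that 7 of the 9 fits with 1 library left out lost.

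Pitx3, known for midbrain dopamine neurons and the lens, was the 1 tested Pitx gene and was nearly level. It measured 9.12, 8.04 and 9.42 TPM in young, 10.7, 10.4 and 10.2 TPM in aged and 10.6, 8.67 and 9.17 TPM in treated libraries, and passed in no comparison. The dopamine transporter gene Slc6a3, chosen after its values were seen, measured 5.17, 6.02 and 5.92 TPM in young, 0.0776, 3.43 and 6.42 TPM in aged and 0.116, 0.432 and 0.202 TPM in treated libraries. Th, which codes for the enzyme tyrosine hydroxylase of dopamine and noradrenaline neurons, took another course, at 8.24, 10.8 and 9.55 TPM in young, 5.45, 8.74 and 11.7 TPM in aged and 4.76, 20.2 and 13.0 TPM in treated libraries. In Th treated library 1 was the lowest of the 9 libraries, while treated libraries 2 and 3 were the highest. Of the 4 tested genes of the monoaminergic list 3, Slc6a3, Tph2 and Ddc, fell between GRP-E1F2 and young saline, where 29.4% of all genes fell. None of the 4 passed between aged saline and GRP-E1F2. The 7 monoaminergic neuron markers summed to 28.7 to 35.2, 9.93 to 40.6 and 8.84 to 26.9 TPM in young, aged and treated libraries, and the part of dopamine neurons in the level of Pitx3 was not tested. Pitx1, a gene of the pituitary and hindlimb, did not exceed 0.150 TPM. The 7 anterior pituitary markers summed to 2.42 to 3.06 TPM in young, 17.6 to 22.5 TPM in aged and 1.60, 874 and 441 TPM in treated libraries 1, 2 and 3, while Lhx3 measured 0, 0.736 and 0.692 TPM in those treated libraries.

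Otx1, a gene of deep-layer cortical neurons, measured 1.56, 0.862 and 1.37 TPM in young, 2.89, 2.54 and 2.30 TPM in aged and 3.13, 2.18 and 2.26 TPM in treated libraries. All aged and treated libraries were above the young ones and overlapped each other. It rose by 0.67 ± 0.15 with age (limma adjusted p = 0.0198), lost without any of young libraries 2 and 3 and aged libraries 1 and 2, and differed by -0.03 ± 0.15 with GRP-E1F2 (limma adjusted p = 0.908). In the neocortical markers named beside Lhx2, 3 of 8 rose with age, where 5.48% of all genes rose, and none passed with GRP-E1F2. Between GRP-E1F2 and young saline 7 of the 8 rose, where 17.2% of all genes did.

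Counted over genes, 22 of the 28 tested members passed in at least 1 of the 3 comparisons, where 50.8% of all genes tested did. Six3, Pou2f2, Pou3f3, Pou4f1, Pou6f1 and Pitx3 passed in none. Because the age and GRP-E1F2 comparisons share the aged libraries, their values are set side by side without a test. Irx2, Irx5, Lhx1, Lhx5, Pax2 and Pax6 fell in both and Meis2 rose in both. No member that rose with age fell with GRP-E1F2, and none that fell with age rose with it. How many of all genes tested fell or rose in both was not computed. The shared direction is therefore not shown to be particular to these members.

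The other homeobox genes and the partners of these families were taken from lists that were drawn up with earlier results of these data known. Of 58 other homeobox genes found, 31 were tested. With age 4 rose and 6 fell, where 5.48% of all genes rose and 11.2% fell, with a median of -0.02 against -0.05. With GRP-E1F2 4 rose and 12 fell, where 7.47% rose and 13.4% fell, with a median of -0.14 against -0.02. The falls with GRP-E1F2 were led by En2, a gene of the midbrain-hindbrain boundary and cerebellum, at 53.6 ± 9.91 (SD, n = 3), 32.9 ± 2.82 and 0.428 ± 0.142 TPM in young, aged and treated libraries. Uncx measured 20.0 ± 2.35, 11.6 ± 2.13 and 0.427 ± 0.293 TPM and Barhl2 19.0 ± 3.11, 12.2 ± 2.00 and 0.917 ± 0.583 TPM. Tlx3 measured 5.99 ± 1.35 and 7.39 ± 1.21 TPM in young and aged libraries and was listed at 0 in the treated ones. En2, Uncx, Barhl2 and Tlx3 averaged under 1 TPM in the treated libraries and so passed the filter only through the saline libraries. The counts and medians therefore describe these 31 genes only. Of the 25 partners, 22 were tested. With age Lmo3, Pknox2 and Tle1 rose and Tle3 fell, with a median of 0.02, and with GRP-E1F2 4 rose and 1 fell, with a median of 0.10, beside the same shares and medians over all genes. Ldb2, a partner of LIM homeodomain proteins, measured 13.4 ± 1.76, 16.9 ± 2.64 and 29.0 ± 8.15 TPM in young, aged and treated libraries and rose by 0.71 ± 0.20 (SE) with GRP-E1F2 (limma adjusted p = 0.0323). The corepressor gene Tle2 fell by 0.79 ± 0.17 (limma adjusted p = 0.0121), from 10.4 ± 1.08 to 5.68 ± 1.48 TPM.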

How the data were processed

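The deposited table holds TPM values that the authors computed per gene in 9 libraries, 3 per group. The submitters' processing notes name GATK, SAMtools 0.1.18, Picard and HISAT2 and the build mm10; the tool that made the TPM values, its annotation and its use of strand were not given in the sources used here. TPM keeps no depth, so no counting error could be given.

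Log2(TPM + 1) values of the 13301 genes averaging 1 TPM or more were analysed with limma 3.58.1 under R 4.3.3 (group means over all 9 libraries, eBayes with trend), with two-sided p-values adjusted by Benjamini-Hochberg over all genes and called under 0.05. The fit was tested on simulated data. Alternatives were a pseudocount of 0.1, no filter, median-of-ratios scaling, quantile normalisation, the replicate number as a block, only the 2 groups compared, 2 libraries per group, and each library left out. Members, gene lists and tests were chosen with earlier results of these data known. Called members are given per library, other tested members by library or group values, and untested ones by range, or per library where 1 TPM was reached or a called gene lies beside them; list genes are the largest called changes, at most 4 per list. Slc6a3, Th, Calb2, Ebf1 and the example markers fall outside that rule and were picked with their values in view. Gene spans, found for all 64 members, and promoters, found for 47, are RefSeq on GRCm38.p6. Overlapping genes are from GENCODE on the same build. Other tools were Python 3.11.15, numpy 2.4.6, pandas 2.3.3 and matplotlib 3.10.9. A few genes are not reported here.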

Additional observations from a re-analysis of the deposited data

How the results depend on the processing

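No called member changed direction under any alternative. With 2 libraries per group the members called went from 13 to 0 with age, from 11 to 5 between aged saline and GRP-E1F2 and from 22 to 11 between young saline and GRP-E1F2. Over all genes, that fit called 0.00752% higher and 0.015% lower with age. The shares were 0.105% and 1.76%, and 3.91% and 8.97%, in the other 2 comparisons. The drop was therefore not particular to the members. Shares over all genes are not given for the other alternatives. Without the filter the count between young saline and GRP-E1F2 was 35, since 13 members under 1 TPM were then called. With 1 library left out the counts ranged from 3 to 16, from 8 to 15 and from 18 to 23; the age count was 3 when young library 3 or aged library 2 was dropped, 6 when young library 2 or aged library 1 was, and 8 when treated library 3 was. The 3 counts stayed within 1.5 times of the first fit under the other pseudocount, both scalings and the fits of 2 groups. Fits with the replicate block called 13, 11 and 22 members; correlations between same-numbered libraries were -0.05 to 0.13, so the numbers are not taken to pair the libraries. The unknown depth limits what a value near 0 can show.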
